A study of Mus musculus with 4 samples.

Results

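Cdc42 is described here through its 2 transcript isoforms, a ubiquitous and a brain form, in single cells of the embryonic mouse brain. The rule took every row with the symbol Cdc42, which was 1 gene of the 27998 in the Illumina matrices and 2 isoforms of the 31947 with a Nanopore UMI in the kept cells. The gene was selected on these same Nanopore counts, namely on the shares of its 2 isoforms in single cells and in cell classes. Those shares are therefore given as a description without a test, and tests are kept for the total Cdc42 level and for other genes.

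The cells came from the cortex, hippocampus and sub ventricular zone of 1 C57BL/6 mouse at E18, with no treatment and no genetic change given in the labels. A single 10x Genomics emulsion was split before reverse transcription into aliquots of 190 and 951 cells, and the cDNA of each was read both by Illumina and by Nanopore sequencing. The aliquots are thus technical replicates of 1 suspension, and p-values over them measure the spread between aliquots and not between animals. A unique molecular identifier (UMI) marks 1 captured RNA molecule. Levels below are in CPM, the UMI count of a gene scaled to the total of its library, so that libraries of unequal depth can be compared. For the lists of genes around Cdc42 and the genes ranked by correlation, totals were also scaled by edgeR's TMM factors, in the lists over tested genes only. These scales differ slightly. On that of the lists, Cdc42 was at 532 and 542 CPM in mature glutamatergic-like cells.

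Cdc42 is a small GTPase that cycles between an active, GTP-bound and an inactive, GDP-bound state. Guanine nucleotide exchange factors (GEFs) switch it on, GTPase activating proteins (GAPs) and dissociation inhibitors (GDIs) keep it off, and effectors such as the PAK kinases and the PAR polarity complex act on actin and cell polarity when they bind the active form. In the developing brain it is known for its part in the apical polarity of radial glia and in axon formation. Its transcripts differ in the last coding exon, which encodes the C terminus where lipids anchor the protein in membranes. The C terminus of the ubiquitous form is prenylated, whereas that of the brain form carries a pair of adjacent cysteines and can also be palmitoylated.

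Both isoforms lie on the minus strand of chromosome 4 (GRCm38, Gencode annotation), have 6 exons and share the first 4 coding exons with 486 coding bases (162 codons). The ubiquitous isoform Cdc42-202 (ENSMUST00000051477.12) spans 137319696 to 137357720 with a length of 2108 bases, and its last exon lies at 137319696 to 137321192. The brain isoform Cdc42-201 (ENSMUST00000030417.9) spans 137321762 to 137357699 with a length of 1448 bases, and its last exon lies at 137321762 to 137322619, 569 bases upstream of the ubiquitous one in the direction of transcription. The coding parts of these last exons, where the 2 proteins come to differ, are printed 5′ to 3′ on the transcribed strand with the bases that differ between them in capitals.
Ubiquitous last coding exon, chr4:137321106-137321192: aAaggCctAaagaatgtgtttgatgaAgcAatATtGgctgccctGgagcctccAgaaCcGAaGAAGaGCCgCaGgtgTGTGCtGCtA
Brain last coding exon, chr4:137322533-137322619: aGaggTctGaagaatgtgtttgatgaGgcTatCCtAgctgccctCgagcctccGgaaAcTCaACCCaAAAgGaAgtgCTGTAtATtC
The 2 exons have the same 87 coding bases in length and differ at 30 of them, with 65.5% identity. Of their 29 codons 19 differ and 9 encode another amino acid, 8 of these among the last 10 codons. In the Gencode transcripts, 4 transcripts of other genes held at least 1 of 114 words of 31 bases from the Cdc42 isoforms, with at most 6 words in any of them, and 1 small nuclear RNA gene on the opposite strand lies within the locus.

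Of 1141 cell barcodes 1121 had at least 1400 Illumina genes and were kept, 186 in the 190-cell and 935 in the 951-cell aliquot. The 20 cells left out had at most 1392 genes and the shallowest cell kept had 1405. The libraries held 1809081 and 8295650 Illumina UMIs and 993220 and 4889148 Nanopore UMIs assigned to an isoform. The aliquots shared 13 barcodes, 12 of them with a kept cell in both, and 11 of these pairs fell in the same cluster. Whether a shared barcode marks 1 cell counted in both aliquots or 2 cells was not tested. Leaving these cells out moved no brain isoform share over both aliquots by more than 0.552 percentage points, while in the 190-cell aliquot the mature GABAergic-like share went from 50% to 47.8% and the mature glutamatergic-like share from 59.8% to 57.9%. The tests of the Cdc42 level below are also given without these cells. The cells formed 10 clusters, of which 9 were named from fixed marker genes as 7 classes, and the suffix -like says that a name has no other basis. The cluster led by Ccl4 met the marker rule for intermediate progenitors, with 7 of 8 markers raised, but that name is not used here. Of its 10 leading genes 8 are of microglia (Ccl4, Ccl3, C1qc, Tyrobp, C1qb, C1qa, Sepp1 and Fcer1g) and 2 of intermediate progenitors (Eomes and Neurog2). Of its 88 cells 3 had at least 3 UMIs of the microglia list and 83 at least 3 UMIs of the intermediate progenitor list, and it is given beside the 7 classes as the Ccl4-led cluster. The cycling radial glia-like class was named from 8 cell cycle genes alone. On Illumina it held 3233 CPM of the 10 radial glia markers, against 27341 CPM in radial glia-like and 3302 CPM in Ccl4-led cells. Whether its cells are radial glia was not tested.

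Cdc42 was detected in most cells, with at least 1 Illumina UMI in 174 of 186 cells (93.5%) and 850 of 935 cells (90.9%). The Illumina libraries held 735 and 3436 Cdc42 UMIs. The Nanopore libraries held 555 and 2796 Cdc42 UMIs, of which 235 and 1289 were of the brain and 320 and 1507 of the ubiquitous isoform. The authors assigned Nanopore cell barcodes and UMIs with the Illumina barcodes of the same gene or genomic region as a guide, so the counts of the 2 platforms are not independent. Nanopore recovered 75.5% and 81.4% as many Cdc42 UMIs as Illumina, against 54.9% and 58.9% over all genes. Over both aliquots this recovery of Cdc42 ran from 76.1% in Ccl4-led to 82.4% in immature glutamatergic-like cells, with radial glia-like cells at 79.9% and mature glutamatergic-like cells at 80.3%.

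Among the genes that both tables hold, Cdc42 stood at 426 and 429 CPM on Illumina and at 559 and 572 CPM on Nanopore. The Nanopore value of a gene sums only its UMIs matched to 1 isoform, whereas Illumina counts every UMI of the gene. The part of this unlike counting in the difference was not tested. Both Nanopore libraries were above both Illumina libraries. After scaling by TMM factors, the difference was 0.59 on the log2 scale with an SE of 0.09 (edgeR's quasi-likelihood F test, Benjamini-Hochberg adjusted p = 0.00318 over 9855 genes). This is a fold of 1.51, larger than the ratio of the CPM values above, which are not scaled by these factors. Of all genes tested, 20.2% were called higher and 30.3% lower on Nanopore, and the median difference was -0.037. The median absolute difference over all genes was 0.594, so that of Cdc42 was of typical size. With its sign, it was above that of 84.6% of genes. Without the shared barcodes the difference was 0.58 (adjusted p = 0.00465 by the same edgeR test).

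In all cells of an aliquot together, the brain isoform held 42.3% of the Cdc42 UMIs in the 190-cell (exact 95% binomial interval 38.2% to 46.6%) and 46.1% in the 951-cell aliquot (44.2% to 48.0%). These intervals, like those below, cover counting error only. Both isoforms were thus abundant in the tissue as a whole, with the ubiquitous one ahead in both aliquots.

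The brain isoform was rare in radial glia-like cells and held the larger part of Cdc42 transcripts in the most mature neurons. In radial glia-like cells, the neural stem cells of the embryonic cortex, it held 14.3% of 56 Cdc42 UMIs in the 190-cell aliquot (interval 6.38% to 26.2%) and 4.35% of 230 in the 951-cell aliquot (2.10% to 7.85%). In cycling radial glia-like cells the shares were 27.1% (18.0% to 37.8%) and 18.4% (13.9% to 23.7%). In the Ccl4-led cluster they were 8.82% (1.86% to 23.7%) and 22.7% (16.4% to 30.2%). All 6 of these values were below all values of the 4 neuron classes other than Cajal-Retzius-like cells.

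Immature glutamatergic-like cells, young excitatory neurons, had brain shares of 48.9% (38.1% to 59.8%) and 42.6% (38.2% to 47.0%). In mature glutamatergic-like cells the share was 59.8% of 214 UMIs (52.9% to 66.4%) and 63.5% of 1100 UMIs (60.5% to 66.3%), which makes this the class with the most Cdc42 UMIs and the closest aliquots. Both mature values exceeded both immature ones in the glutamatergic lineage. The GABAergic-like classes had the same order, with 35.6% (21.9% to 51.2%) and 42.7% (36.8% to 48.7%) in immature GABAergic-like and 50% (29.1% to 70.9%) and 58.2% (51.4% to 64.8%) in mature GABAergic-like cells. Their leading genes differed, with Ebf1, Isl1 and Zfhx3 in the immature and Sst, Maf and Nxph1 in the mature class. Whether they are stages of the same lineage was not tested. The 190-cell value of mature GABAergic-like cells rests on 24 UMIs and its interval spans the values of the immature class.

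Cajal-Retzius-like cells, early reelin-secreting neurons of the cortical margin, gave 2 discordant values. The brain isoform held 22.2% of 9 UMIs from 4 cells of the 190-cell aliquot (2.81% to 60.01%) and 67.2% of 58 UMIs from 13 cells of the 951-cell aliquot (53.7% to 79.0%). Ordered by the pooled share, the classes ran from radial glia-like at 6.29% over Ccl4-led at 20.2%, cycling radial glia-like at 20.6%, immature GABAergic-like at 41.7%, immature glutamatergic-like at 43.5%, mature GABAergic-like at 57.4% and Cajal-Retzius-like at 61.2% to mature glutamatergic-like at 62.9%. Between neighbours in this order the aliquot values did not overlap at only 2 steps, from cycling radial glia-like to immature GABAergic-like and from immature glutamatergic-like to mature GABAergic-like cells.

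**Figure D1:**
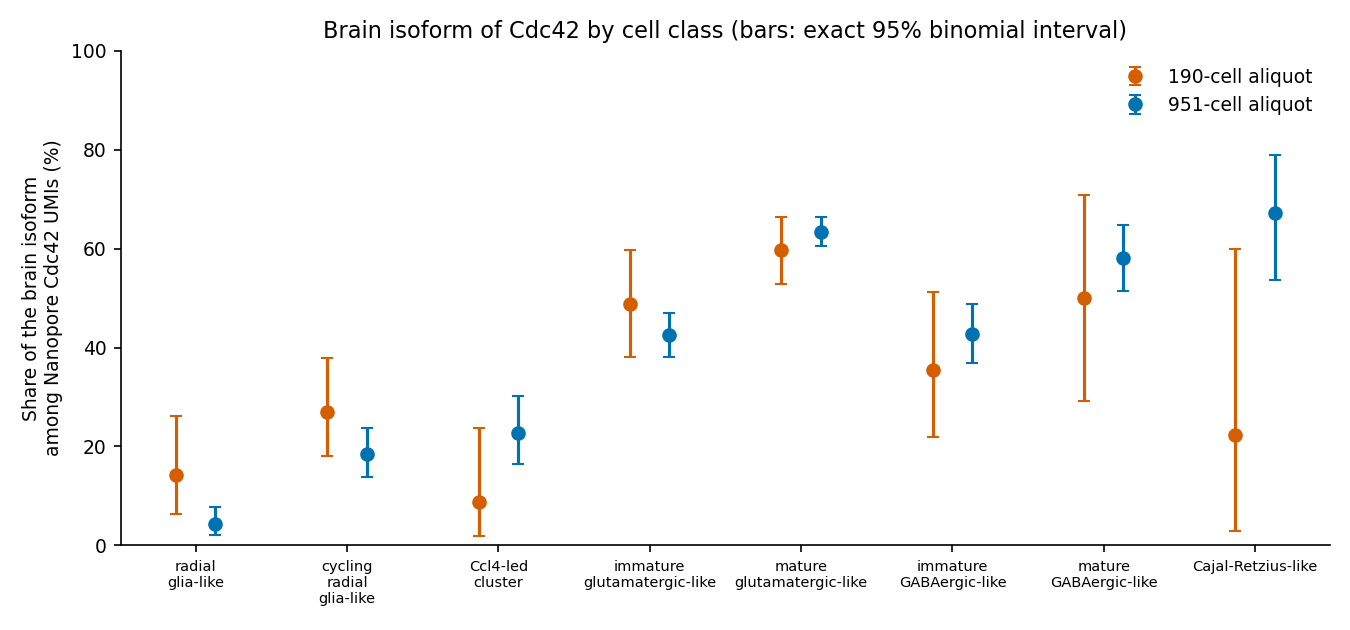
Share of the brain isoform among Nanopore Cdc42 UMIs (percent, vertical axis) in each of 7 cell classes and the Ccl4-led cluster, 1 point per aliquot with its exact 95% binomial interval. The radial glia-like, cycling radial glia-like and Ccl4-led points lie at or below 27.1%, while the mature glutamatergic-like points are at 59.8% and 63.5% and the 2 Cajal-Retzius-like points, from 4 and 13 cells, stand far apart.

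Both glutamatergic-like classes were made of 2 clusters each. Of the mature glutamatergic-like clusters, the one led by Ndrg1, Sla and Nefl had 61.0% and 67.3% brain isoform in the 190- and 951-cell aliquots, and the one led by Crym, Nrp2 and Slit3 had 59.1% and 60.7%. The Ndrg1-led cluster, of 141 cells, had 5 of 8 mature markers raised. Its mean log2 fold was 0.57 for the mature and 0.16 for the immature glutamatergic markers. The Crym-led cluster had 7 of 8 raised, with means of 2.00 and 0.13. Of the immature glutamatergic-like clusters, the one led by Tfap2d and Wnt7b had 54.3% and 40.2%, and the one led by Hs6st2 and Dscam had 42.9% and 45.9%. All 4 mature values were above all 4 immature ones, and within the immature pair the values of one cluster enclosed those of the other.

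The share was also compared between shallow and deep cells. When each class was split at its median Nanopore depth, mature glutamatergic-like cells had 62.0% brain isoform in the shallower (56.8% to 67.0%) and 63.2% in the deeper cells (60.03% to 66.3%), and immature glutamatergic-like cells had 45.2% and 42.8%. Mature GABAergic-like cells went from 63.5% (53.1% to 73.1%) to 53.4% (45.01% to 61.6%) and cycling radial glia-like cells from 24.5% (16.8% to 33.7%) to 18.7% (13.9% to 24.3%), with intervals that overlap. Radial glia-like cells had 1.25% in the shallower (0.0316% to 6.77%) and 8.25% in the deeper cells (4.88% to 12.9%). These deeper cells include a called doublet, described below, with 6 brain and 4 ubiquitous Cdc42 UMIs. The classes differed in depth, with a median of 6218 Nanopore UMIs per cell in radial glia-like, 6550 in mature glutamatergic-like, 3311 in immature GABAergic-like and 2849 in mature GABAergic-like cells.

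The radial glia-like value of the 190-cell aliquot depended on 1 cell. This cell, which Scrublet called a doublet, had 32698 Illumina UMIs, 6 brain and 4 ubiquitous Cdc42 UMIs, and 58 UMIs of 6 genes of glutamatergic neurons (Neurod6, Neurod2, Tbr1, Mef2c, Crym and Opcml), of which the other radial glia-like cells of that aliquot had a median of 1. It held 6 of the 8 brain isoform UMIs of its class and aliquot, and without it the share fell from 14.3% to 4.35%. Without all 3 called doublets of the class the shares were 2.56% and 4.35%, and 4.09% over both aliquots. Without the 3 cells with microglia UMIs the Ccl4-led shares were 8.82% and 24.1%.

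RNA that leaks from broken cells can give UMIs in cells that do not express a gene, so the brain isoform was set beside those 6 genes in the same Nanopore libraries. In radial glia-like cells the brain isoform was at 30.0 CPM, 6.84% of its 438 CPM in mature glutamatergic-like cells. The 6 genes were at 0.599% (Neurod2) to 7.66% (Opcml) of their mature glutamatergic-like level, and at 2.20% together. The brain isoform thus lay inside the range of the single genes, whose upper end rests on 1 Opcml UMI, and above the 6 genes together, and whether radial glia-like cells express it was not tested. The called doublet held 6 of its 18 UMIs. At least 1 brain isoform UMI was seen in 15.9% of radial glia-like cells, against 13.04% with a UMI of any of the 6 genes.

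The ubiquitous isoform went the other way, at 446 CPM in radial glia-like and 259 CPM in mature glutamatergic-like cells. In cycling radial glia-like cells the brain isoform was at 20.4% of its mature glutamatergic-like level, with the 6 genes at 1.37% (Crym) to 33.3% (Tbr1) and at 10.0% together. In immature GABAergic-like cells it was at 52.7%, where the 6 genes were at 0% (Tbr1 and Opcml) to 13.8% (Mef2c) and at 1.72% together. The isoform was thus above each of them there. How much of it in cycling radial glia-like or immature GABAergic-like cells is leaked RNA was not tested.

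Expressed as levels, the brain isoform spanned a wide range between classes. It was at 80.0 and 19.97 CPM in radial glia-like, 129.9 and 77.5 CPM in cycling radial glia-like and 36.6 and 93.9 CPM in Ccl4-led cells of the 190- and 951-cell aliquots. It reached 257 and 236 CPM in immature glutamatergic-like and 427 and 439.9 CPM in mature glutamatergic-like cells. Immature GABAergic-like cells had 169 and 243 CPM, mature GABAergic-like cells 230.1 and 351 CPM, and Cajal-Retzius-like cells 98.7 and 583 CPM. Every value of the 4 GABAergic-like and glutamatergic-like classes was above every value of the radial glia-like, cycling radial glia-like and Ccl4-led cells, and mature glutamatergic-like cells were above the other 3 of these classes in both aliquots.

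The ubiquitous isoform spanned a narrower range, and its highest level was in the class with the lowest brain isoform level. It was highest in radial glia-like cells at 480.3 and 439 CPM, above both aliquots of every other class. Cycling radial glia-like cells had 350.2 and 343 CPM and Ccl4-led cells 378 and 319 CPM. Immature glutamatergic-like cells had 269 and 319 CPM and immature GABAergic-like cells 306 and 326 CPM. The lowest pooled levels were those of mature glutamatergic-like cells with 287 and 253 CPM and of mature GABAergic-like cells with 230.1 and 253 CPM. Its order thus began with mature GABAergic-like at 249.8 CPM and ended with radial glia-like cells at 446 CPM, and neighbours overlapped between aliquots except at these 2 ends.

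**Figure D2:**
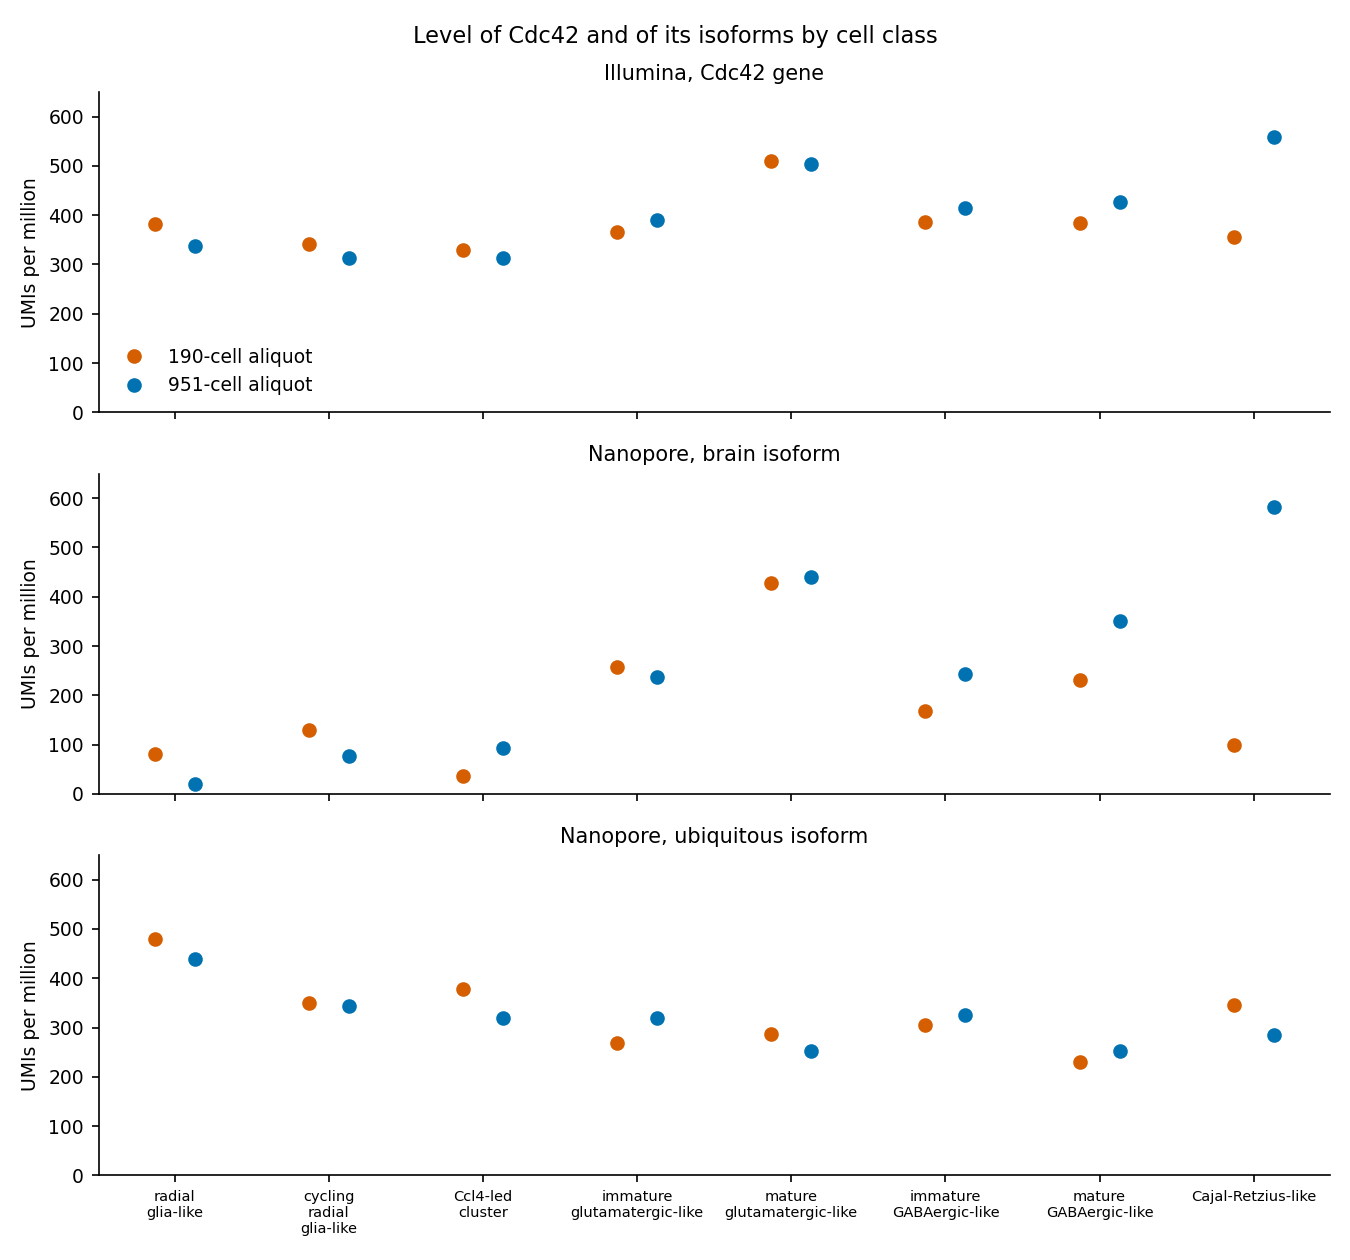
Level of Cdc42 on Illumina (top), of its brain isoform on Nanopore (middle) and of its ubiquitous isoform on Nanopore (bottom), in CPM, by cell class with 1 point per aliquot. The brain isoform runs from 19.97 to 80.0 in radial glia-like cells to 427 to 439.9 in mature glutamatergic-like cells, while the ubiquitous isoform is highest in radial glia-like cells.

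The total Cdc42 level from Illumina, which does not tell the isoforms apart, was highest in mature glutamatergic-like cells at 511 and 503 CPM, leaving aside the small Cajal-Retzius-like class at 355 and 558 CPM. Mature GABAergic-like cells had 384 and 426 CPM, immature GABAergic-like cells 386 and 415 CPM and immature glutamatergic-like cells 366 and 389.6 CPM. Radial glia-like cells had 383 and 338 CPM, cycling radial glia-like cells 341 and 313 CPM and Ccl4-led cells 329 and 314 CPM. Leaving out the Cajal-Retzius-like class, both mature glutamatergic-like values were above all values of the other 6, and the other neighbours in the order overlapped.

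Between classes, Cdc42 was higher in mature glutamatergic-like than in radial glia-like cells by 0.57 on the log2 scale with an SE of 0.18 (edgeR's quasi-likelihood F test on UMIs summed per class and aliquot, adjusted p = 0.0108 over 8584 genes). In this comparison 17.3% of all genes were called higher and 16.4% lower. The difference was 0.55 without the shared barcodes (edgeR, adjusted p = 0.0209). It missed the threshold in DESeq2's Wald test at 0.50 (adjusted p = 0.0753), and with edgeR when the 190-cell or 951-cell mature glutamatergic-like library (adjusted p = 0.0688 and 0.0966) or the 951-cell radial glia-like library (adjusted p = 0.156) was left out, with differences from 0.52 to 0.62.

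Mature GABAergic-like cells did not differ detectably from radial glia-like cells in total Cdc42, with a difference of 0.13 and an SE of 0.19 (edgeR, adjusted p = 0.648), which became -0.049 without the 951-cell mature GABAergic-like library. Without the shared barcodes the difference was 0.11 (edgeR, adjusted p = 0.724). Here 14.8% of all genes were called higher and 16.5% lower. Against mature glutamatergic-like cells, mature GABAergic-like cells were at -0.44 with an SE of 0.18 (edgeR, adjusted p = 0.147). With the aliquot as a block this difference was -0.40 (edgeR, adjusted p = 0.0158), so the call depends on the pairing of the aliquots. Without the shared barcodes, and with no block, it was -0.44 (edgeR, adjusted p = 0.187). In this comparison 3.32% of all genes were called higher and 5.60% lower. The classes also differed in depth, with a median of 4916 Illumina UMIs per mature GABAergic-like and 11412 per mature glutamatergic-like cell, and the part of depth in the difference was not tested.

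Most cells with many Cdc42 UMIs held both isoforms. Of 1121 cells 48 had at least 10 Nanopore UMIs of Cdc42, of which 30 were mature glutamatergic-like, and both isoforms were seen in 44 of the 48. Among these 44 are the called radial glia-like doublet and a called doublet of the 190-cell cycling radial glia-like cells. Over all 1121 cells both isoforms were seen in 40.1%, and in 14.9% of the 1056 cells that could be thinned to equal depth. The 30 mature glutamatergic-like cells all held both isoforms, with a brain share from 27.3% to 90% and a median of 60% (interquartile range 50% to 69.8%). These 30 cells had a median of 11 Cdc42 UMIs, so counting error enters their shares. Its part in the spread between them was not tested. In 21 of them the brain isoform held more than 50% of the UMIs. The 6 radial glia-like cells had shares from 0% to 60% with a median of 4.55%, where the highest is the called doublet described above, and 3 of them held the ubiquitous isoform alone. The 5 cycling radial glia-like cells ranged from 0% to 45.5% with a median of 20%. The cell at 40% is a called doublet. The cell at 45.5% was not called, but it had 43 UMIs of the 6 genes of glutamatergic neurons named above. The other cells of its class in the 951-cell aliquot had a median of 1.

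The isoform with more UMIs held on average 70.2% of a cell's Cdc42 UMIs over the 48 cells, 64.1% in mature glutamatergic-like and 90.2% in radial glia-like cells. With a minimum of 5 UMIs, 220 cells could be used and 184 of them held both isoforms, while 28 held the ubiquitous and 8 the brain isoform alone. All 8 cells with the brain isoform alone were mature glutamatergic-like, and 15 of the 28 with the ubiquitous isoform alone were radial glia-like. Median shares at this minimum were 0% in 22 radial glia-like, 0% in 8 Ccl4-led, 20% in 19 cycling radial glia-like, 42.9% in 38 immature glutamatergic-like, 60% in 115 mature glutamatergic-like, 41.4% in 8 immature GABAergic-like, 66.7% in 4 mature GABAergic-like and 61.8% in 6 Cajal-Retzius-like cells. With so few UMIs per cell, a cell that shows 1 isoform may hold both. Counting error also raises the mean share of the isoform with more UMIs, by an amount that was not tested.

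**Figure D3:**
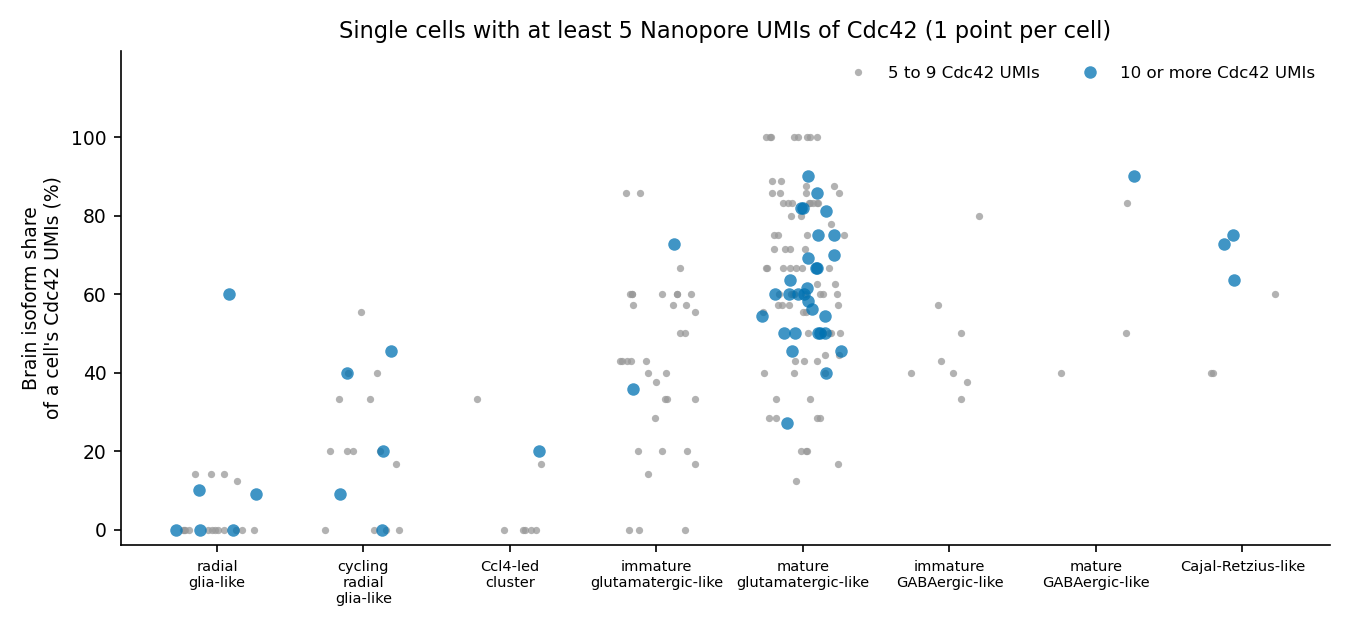
Brain isoform share (percent, vertical axis) in each of the 220 cells with at least 5 Nanopore Cdc42 UMIs, by cell class, large blue points for the 48 cells with 10 or more. Mature glutamatergic-like cells spread from 12.5% to 100% around a median of 60%, and 15 of 22 radial glia-like cells lie at 0%. The part of counting error in this spread was not tested.

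The share of cells with a UMI was compared with and without equal depth. Without thinning, 15.9% of radial glia-like and 85.3% of mature glutamatergic-like cells had a brain isoform UMI, and 89.9% and 72.8% had a ubiquitous isoform UMI. After each cell was thinned to 2000 Nanopore UMIs, which left out 65 of 1121 cells, the brain isoform was seen in 5.88% of radial glia-like (exact 95% binomial interval 1.63% to 14.4%), 16.2% of cycling radial glia-like (10.1% to 24.2%) and 14.9% of Ccl4-led cells (8.20% to 24.2%). It was seen in 30.9% of immature glutamatergic-like (24.9% to 37.5%), 54.8% of mature glutamatergic-like (48.5% to 61.0%), 35.8% of immature GABAergic-like (28.4% to 43.7%) and 44.1% of mature GABAergic-like cells (35.3% to 53.2%). Of 16 Cajal-Retzius-like cells 56.3% had a brain isoform UMI (29.9% to 80.2%). Immature GABAergic-like cells thus stood above immature glutamatergic-like cells here, with overlapping intervals, whereas their pooled isoform share was lower.

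The ubiquitous isoform was seen in 63.2% of thinned radial glia-like cells (50.7% to 74.6%) and in 39.0% of mature glutamatergic-like cells (33.0% to 45.2%), with the other 6 classes from 42.5% to 54.0%. Both isoforms were seen together in 2.94% of thinned radial glia-like and 18.9% of mature glutamatergic-like cells. Of the thinned mature GABAergic-like cells, 44.1% had a brain and 42.5% a ubiquitous isoform UMI, so the 2 isoforms were about equally often seen there.

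**Figure D4:**
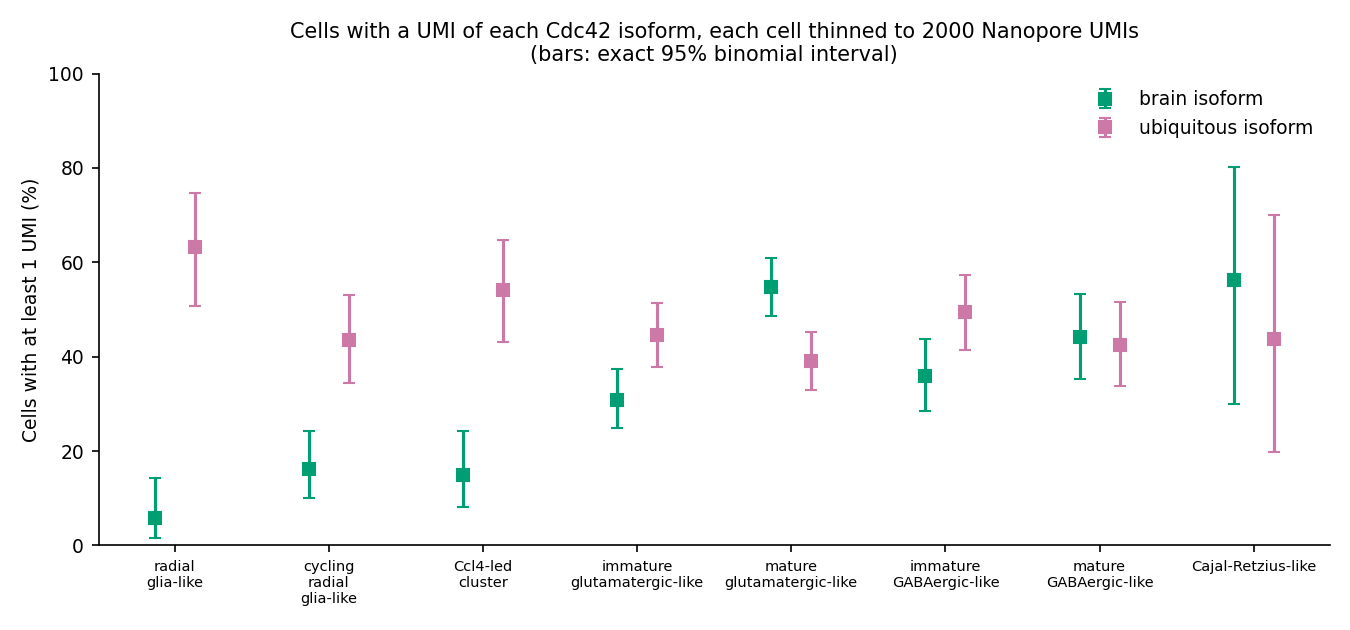
Percent of cells with at least 1 UMI of the brain (green) and ubiquitous isoform (pink) after thinning every cell to 2000 Nanopore UMIs, by cell class, with exact 95% binomial intervals. The brain isoform goes from 5.88% of radial glia-like to 54.8% of mature glutamatergic-like cells, and the ubiquitous isoform from 63.2% to 39.0%.

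The genes that act with Cdc42 were followed in 5 lists of 127 genes in all, of which 83 passed the filter on low counts. These genes and Cdc42 had been kept out of the clustering. In mature glutamatergic-like against radial glia-like cells 23 of the 83 (27.7%) were called higher and 11 (13.3%) lower, where the shares of all genes were 17.3% and 16.4%. These 34 calls fell to 17 without the 951-cell radial glia-like library and to 22 in DESeq2's Wald test. The 2 comparisons with radial glia-like cells share those libraries as their control. Radial glia-like cells also held 3172 CPM of 8 cell cycle markers, against 89.8 CPM in mature glutamatergic-like and 106 CPM in mature GABAergic-like cells, and the part of cycling cells in these differences was not tested.

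Of the other small GTPases of its family, 11 of 20 were tested and 3 rose and 3 fell from radial glia-like to mature glutamatergic-like cells, with a median log2 difference of -0.076 against 0.0056 over all genes. Rac3, a Rac GTPase of neurons, was at 369 and 336 CPM in mature glutamatergic-like and at 71.7 and 56.2 CPM in radial glia-like cells, a rise of 2.53 with an SE of 0.25 (edgeR, adjusted p = 3.74e-11). Both of its neuronal values were above both glial ones. Rhov and Rnd2, atypical members of the family, rose by 2.96 and 1.02. Rhoc and Rhoa, which drive actin contractility, fell by 4.57 and by 1.33, with Rhoa at 92.2 and 92.5 CPM in the neurons and at 171 and 273 CPM in the glia.

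Of the activators, 8 of 22 GEFs were tested and 2 rose, with a median of 0.49. Itsn1, an endocytic scaffold with a Cdc42 exchange domain, was at 149.8 and 158 CPM in mature glutamatergic-like and at 49.6 and 26.3 CPM in radial glia-like cells, a rise of 2.28 with an SE of 0.30 (edgeR, adjusted p = 4.52e-08). Of the inhibitors, 8 of 17 tested GAPs and GDIs were higher and 2 lower, with a median of 1.14. Abr, a GAP for Rac and Cdc42, was at 94.1 and 62.2 CPM in the neurons and at 11.03 and 4.78 CPM in the glia, a rise of 3.60. Arhgdig, a GDI, and Srgap1, a GAP of the Slit and Robo pathway, rose by 2.55 and 2.47. Racgap1, which acts in cytokinesis, fell by 3.69 and Arhgap31, a GAP for Cdc42 and Rac, fell by 3.26.

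Among the effectors, 9 of 25 tested genes were higher and 4 lower in mature glutamatergic-like cells, with a median of 0.20. The kinase Pak7 was at 97.9 and 116 CPM in mature glutamatergic-like and at 5.51 and 2.39 CPM in radial glia-like cells, a rise of 5.11 with an SE of 0.46 (edgeR, adjusted p = 5.28e-12). Prkcz, an atypical protein kinase C of the polarity complex, rose by 4.07 and Baiap2, which links Cdc42 and Rac to membrane bending and actin, by 3.30. The scaffold Iqgap2 fell by 4.75, a fall that rests on the 951-cell aliquot with 0 CPM in the neurons and 37.1 CPM in the glia, while the 190-cell aliquot had 3.84 and 5.51 CPM. The small binding protein Cdc42se1 and the kinase Pak4 fell by 1.93 and by 1.92.

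Enzymes that put lipids on C termini or take them off were called in 3 of 22 tested genes, 1 higher and 2 lower, with a median of -0.20, and with the aliquot as a block in 3 higher and 4 lower. The palmitoyltransferase Zdhhc9 rose by 1.76, at 24.97 and 21.5 CPM against 0 and 8.37 CPM. The palmitoyltransferase Zdhhc21 and the depalmitoylase Abhd17b fell by 1.32 and by 1.12. No count of these lists is called particular to them here, since the lists were chosen with earlier results of these data known.

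In mature GABAergic-like against radial glia-like cells, 16 of the 83 genes (19.3%) were higher and 9 (10.8%) lower, where the shares of all genes were 14.8% and 16.5%. These 25 calls fell to 9 without the 951-cell mature GABAergic-like library, to 15 without the 951-cell radial glia-like library and to 14 in DESeq2's Wald test. Rac3 was higher by 1.09 with an SE of 0.28 (edgeR, adjusted p = 0.0020), at 84.7 and 147 CPM against 71.7 and 56.2 CPM. Rhoa fell by 1.48. Rhoc had 116 UMIs in radial glia-like cells and 0 in both mature GABAergic-like libraries, which makes it at least 27.2-fold lower at a floor of 3 counts over the class. Iqgap2 was at least 7.50-fold lower on the same floor.

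Among the regulators of that comparison, Dock11, an exchange factor for Cdc42, was higher by 2.78, and the GAPs Abr, Arhgap33 and Srgap2 were higher by 3.58, 2.06 and 1.34. Racgap1 and the GDI Arhgdia fell by 3.42 and by 0.62. The effectors Pak7, Prkcz and Cdc42ep3 were higher by 4.79, 3.67 and 3.57, while Pak4 and Cdc42se1 fell by 2.53 and by 2.44. Of the lipid enzymes, the palmitoyltransferase Zdhhc17 and the thioesterase Lypla2 were higher by 2.14 and 0.98, and Abhd17b and the thioesterase Lypla1 were at -1.96 and -1.73.

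**Figure D5:**
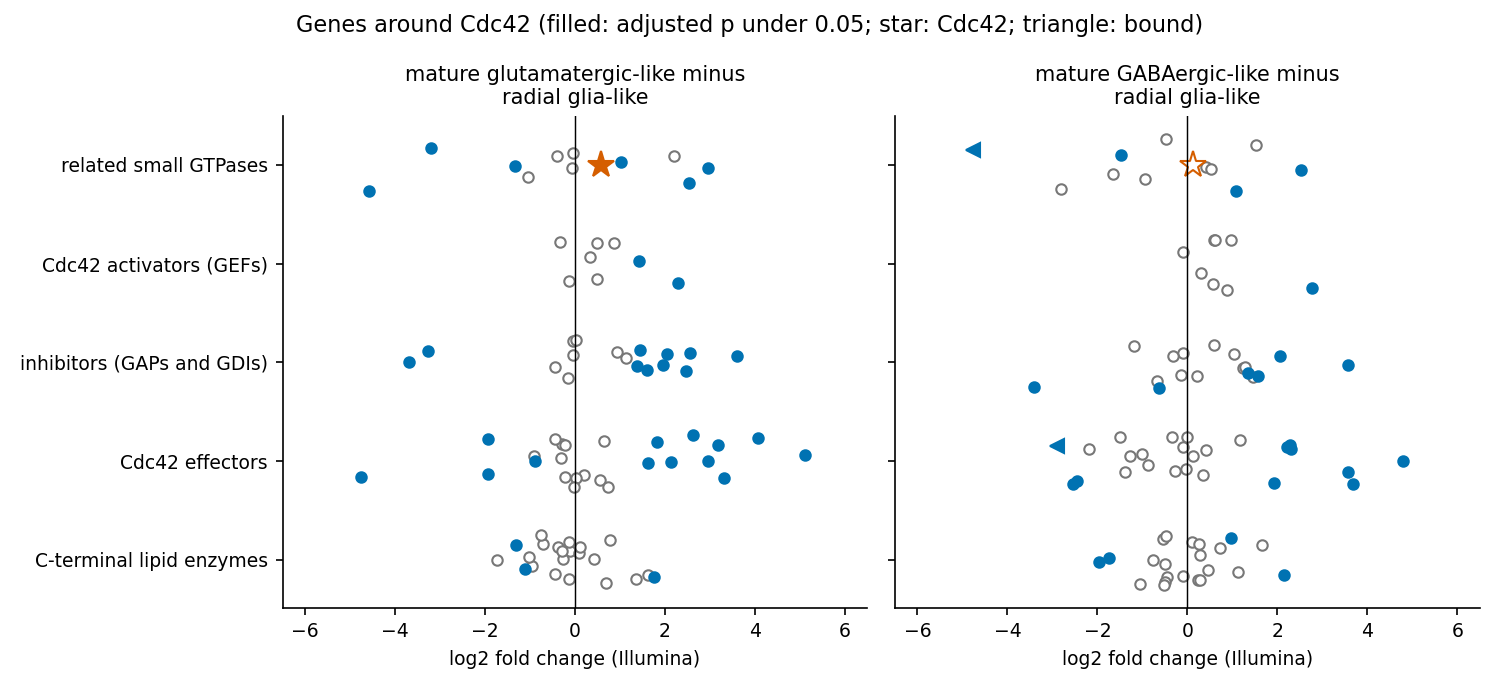
log2 difference on Illumina (horizontal axis) of each tested gene of the 5 lists, mature glutamatergic-like (left) and mature GABAergic-like (right) minus radial glia-like cells. Filled points passed the adjusted threshold of 0.05, triangles are bounds for genes at 0 in both mature GABAergic-like libraries, and the star is Cdc42 at 0.57 (called) and 0.13 (not called).

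Between the 2 mature neuron classes 9 of the 83 genes were called, 3 higher (3.61%) and 6 lower (7.23%) in mature GABAergic-like cells, against 3.32% and 5.60% of all genes. With the aliquot as a block 15 were called, 6 higher and 9 lower, and the 9 calls fell to 5 without the 951-cell mature glutamatergic-like library, to 2 without the 951-cell mature GABAergic-like library and to 2 in DESeq2's Wald test. Rac3 fell by 1.44 from mature glutamatergic-like to mature GABAergic-like cells, with an SE of 0.23 (edgeR, adjusted p = 1.33e-05), and Rnd3, an atypical GTPase, rose by 1.56. Itsn1 fell by 1.40 and Dock11 rose by 2.90, at 28.2 and 17.5 CPM against 1.92 and 2.79 CPM. Baiap2 fell by 5.49, at 0 and 1.59 CPM in mature GABAergic-like and 74.9 and 65.0 CPM in mature glutamatergic-like cells. The GDI Arhgdig, the GAP Chn1 and the kinase Pak3 were at -1.97, -1.84 and -1.26, and the palmitoyltransferase Zdhhc2 rose by 2.19.

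Isoform usage could be tested for few genes around Cdc42, since only Cdc42se2 and Pak7 had 2 isoforms past the filter on low counts. Of these 2 genes 0 were called by edgeR's diffSpliceDGE in the 3 comparisons and 0 had an unadjusted p under 0.05. Adjusted p-values were 0.410 for both in mature glutamatergic-like against radial glia-like cells and 0.215 and 0.539 in mature GABAergic-like against radial glia-like cells. Over the 651 genes tested, 16.1%, 13.2% and 1.38% were called in mature glutamatergic-like and mature GABAergic-like cells against radial glia-like cells and between the 2 neuron classes. Cdc42 is among the genes tested but was selected on this measure, so nothing is read from it.

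The genes most like Cdc42 were ranked by Pearson's r over the 14 libraries of 6 classes and the Ccl4-led cluster in 2 aliquots, among 3006 genes with a mean of at least 50 CPM. The libraries share aliquots, depth differences and the class definitions, so the values are descriptive. With the brain isoform share, the highest were Kifap3 (r = 0.961), a kinesin-associated protein, Map1b (0.947), a microtubule-associated protein, Bzw2 (0.942), the orphan receptor Gpr85 (0.942) and the adhesion molecule Ncam1 (0.942), where the median over all genes was 0.029. Kifap3 was at 113 and 107 CPM in radial glia-like and at 292 and 305 CPM in mature glutamatergic-like cells.

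With the total Cdc42 level, the highest were its relative Rac3 (r = 0.924), the Arp2/3 subunit Arpc2 (0.909), the growth cone protein Gap43 (0.902), the actin-severing Cfl1 (0.889) and Mgst3 (0.881), where the median was 0.064. The 5 genes closest to the brain share and the 5 closest to the total level had no gene in common. With only 5 of 3006 genes in each set, nothing is read from this. Arpc2 was at 259 and 209 CPM in radial glia-like and at 411 and 372 CPM in mature glutamatergic-like cells.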

How the data were processed

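Single-cell cDNA from 1 split 10x Genomics emulsion was measured in 4 libraries, an Illumina and a Nanopore library of each aliquot. The deposited Illumina counts are UMI counts per gene and cell, which the authors made with Cell Ranger 2.0 on mm10 (GRCm38). The deposited Nanopore counts are UMI counts per Gencode isoform and cell. For these the authors aligned reads with minimap2 and assigned barcodes and UMIs with the Illumina reads as a guide. They then made 1 consensus per UMI and counted UMIs that matched 1 isoform. A bias of this assignment against the longer isoform was not tested.

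Cells with at least 1400 Illumina genes were kept (1121 of 1141). The aliquots were integrated and clustered with Seurat 5.3.0 (2000 variable genes without Cdc42 and its pathway genes, 11 dimensions, resolution 0.8), and clusters were named from fixed markers. At least 3 markers of a class had to be raised by at least 0.5 on the log2 scale and be seen in at least 10% of the cells. The mean over all markers of the class had to lead that of the next class by at least 0.2. The rule gave the Ccl4-led cluster the name intermediate progenitor. That name was set aside for its leading microglia genes, and the cluster entered the fits as a group of its own. Doublets were called with Scrublet (scanpy 1.11.5) in 3 of 186 and 4 of 935 cells (0.428%) and kept. UMIs were summed per class and aliquot for classes with at least 5 cells in each, and tested with edgeR 4.0.16 (TMM, filterByExpr, quasi-likelihood F test, p-values adjusted over all genes after Benjamini and Hochberg, threshold 0.05). Isoform usage was tested with diffSpliceDGE. Both tests were run on simulated data first. DESeq2 1.42.0 was an alternative. Intervals are exact binomial (Clopper-Pearson) at 95%.

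The aliquot numbers pair libraries, since an aliquot is 1 reverse transcription. Residuals of the same aliquot correlated at 0.628 between platforms and with a median of 0.195 between classes (0.126 to 0.315 over 21 pairs). The main fit has no block. Alternatives were the block, other normalization, no filter, DESeq2, leaving out each library, other clusterings and no doublets, and, chosen after seeing the data, leaving out shared barcodes and cells with microglia UMIs.

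Named genes were, per list and comparison, the 3 largest rises and 3 largest falls among called genes that moved the same way in both aliquots and reached a mean of 20 CPM in 1 class, and the 5 genes with the highest correlation. A gene that met the rule is not reported here. The gene and all lists were chosen with earlier results of these data known. Sequences and coordinates come from Gencode on GRCm38.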

Additional observations from a re-analysis of the deposited data

How the results depend on the processing

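Total Cdc42 kept its direction in mature glutamatergic-like against radial glia-like cells under all alternatives, but DESeq2 missed the threshold (0.50, adjusted p = 0.0753), and with 1 library left out the difference ran from 0.52 to 0.62. In mature GABAergic-like against radial glia-like cells it ran from -0.049 to 0.28, with a reversed sign at -0.049 without the 951-cell mature GABAergic-like library. Between the 2 neuron classes it ran from -0.64 to -0.30, with the replicate block at -0.40 (adjusted p = 0.0158). The platform difference passed under every alternative, at 0.52 to 0.68.

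Called pathway genes numbered 22 in place of 34, 14 in place of 25 and 2 in place of 9 with DESeq2, 17 to 33, 9 to 26 and 2 to 7 with 1 library left out (the lowest without the 951-cell library of radial glia-like, mature GABAergic-like and mature GABAergic-like cells), and 15 in place of 9 between the neuron classes with the replicate block, which pairs the aliquots. The block moved no other gene-level call of Cdc42 and no other count by over 1.5 times. Isoform usage calls among pathway genes were 1 in place of 0 in both comparisons with radial glia-like cells without the filter, and 0 to 1 with 1 library left out. That gene was Zdhhc20 each time, named after its values were seen.

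With either aliquot left out the shares were 4.35% to 14.3% in radial glia-like, 18.4% to 27.1% in cycling radial glia-like, 8.82% to 22.7% in Ccl4-led, 42.6% to 48.9% in immature glutamatergic-like, 59.8% to 63.5% in mature glutamatergic-like, 35.6% to 42.7% in immature GABAergic-like, 50% to 58.2% in mature GABAergic-like and 22.2% to 67.2% in Cajal-Retzius-like cells. Clustering with the pathway genes gave no Ccl4-led cluster and moved the other shares by at most 2.95 points. Depth limits the 190-cell aliquot most, where 7 of 8 held at most 88 Cdc42 UMIs.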

Other observations

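Zdhhc20, a palmitoyltransferase of the lipid enzyme list named after its values were seen, showed a split between isoforms on few UMIs. In radial glia-like cells all 3 and 14 Nanopore UMIs of the gene in the 190- and 951-cell aliquots were of ENSMUST00000089473.4. In mature glutamatergic-like cells 3 of 3 and 26 of 28 UMIs, and in mature GABAergic-like cells 2 of 2 and 8 of 10 UMIs, were of ENSMUST00000226057.1. The gene did not pass the filter on low counts. Since it was picked on these values, its calls for isoform usage without the filter are not read as a test.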
